A study of Mus musculus with 16 samples.

Results

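The Dlk1-Meg3 locus on mouse chromosome 12 is an imprinted cluster, and 6 of its genes were followed here through 16 libraries of a β-cell line. The 6 were listed by name: Meg3, Rian and Mirg, the long non-coding genes read from the maternal copy, and Dlk1, Rtl1 and Dio3, the protein-coding genes read from the paternal copy. They were found in the deposited table of raw counts, which lists 23329 genes, and all 6 have a row there. The list was drawn up with the levels of these genes in the 4 groups already known, so the members were chosen by their measured counts in these same libraries. Every level and difference of a member is therefore a description and carries no test.

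The cells were BetaTC6, a mouse line that grew from an insulinoma (a tumour of insulin-producing cells), on a C57BL/6 background. Wild-type cells and a line labelled as a knockout of P2ry1, the gene of a purinergic receptor, were each compared with and without the antiparasitic drug ivermectin. All 4 groups were cultured for 3 days, held in buffer that lacked glucose, and then given 20 mM glucose for 30 min, either with ivermectin or with its vehicle DMSO, and each group has 4 libraries. The labels do not say how the knockout was made or whether the line is 1 clone, so genotype and clonal history cannot be told apart here. They also do not say that the 4 libraries of a group came from separate cultures on separate days, so the spread given below may be technical in part.

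Imprinted genes are read from 1 parental copy only, and at this locus the choice depends on a control region that carries methylation on the paternal copy. Where that region is unmethylated, on the maternal copy, the non-coding transcripts are made and the protein-coding genes are kept low. Meg3, Rian and Mirg lie in the same orientation, one after the other, and host many small nucleolar RNAs and microRNAs in their introns. Meg3 is known in human islets as a transcript abundant in β-cells, and Dlk1 encodes a membrane protein related to the Notch ligands. Reads were not split by parental allele, so the words maternal and paternal name the known origin of a gene and were not measured.

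In the annotation of GRCm38.p6, the patched release of the build named mm10, the 6 genes span 828.6 kb. Dlk1 lies at chr12:109452485-109463336, Meg3 at chr12:109540996-109571729, Rian at chr12:109603945-109661716, Mirg at chr12:109734981-109749458 and Dio3 at chr12:110279230-110281097. Rtl1, at chr12:109564900-109604418, overlaps the annotated end of Meg3 and the annotated start of Rian. The library kit keeps the strand of the RNA, but the strand setting of the counting is not given in the sources used here, so reads of Rtl1 and of its overlapping neighbours may not be fully separable. Targeted P2ry1 is on chromosome 3.

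Meg3 and Rian are shown by the 300 bases around their annotated starts (250 before, 50 after, plus strand), since these are the pair of members with the highest levels per length in wild-type cells and both were far lower in the knockout-labelled line. Capitals mark exact matches on either strand to TGACGTCA (the cyclic AMP response element), TATAAA or CCAAT.
Meg3, chr12:109540746-109541045: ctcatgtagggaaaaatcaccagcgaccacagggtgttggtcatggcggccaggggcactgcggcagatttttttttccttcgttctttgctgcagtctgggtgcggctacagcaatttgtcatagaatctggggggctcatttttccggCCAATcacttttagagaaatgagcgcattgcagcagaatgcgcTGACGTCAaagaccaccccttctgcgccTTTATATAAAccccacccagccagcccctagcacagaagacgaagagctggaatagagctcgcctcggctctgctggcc
Rian, chr12:109603695-109603994: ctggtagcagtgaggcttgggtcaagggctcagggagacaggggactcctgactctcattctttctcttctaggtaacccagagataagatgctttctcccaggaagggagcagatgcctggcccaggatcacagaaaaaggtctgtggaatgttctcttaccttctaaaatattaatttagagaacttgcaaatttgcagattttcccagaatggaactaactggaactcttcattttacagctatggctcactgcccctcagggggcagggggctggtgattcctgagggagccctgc
The start of Meg3 holds all 3 motifs: CCAAT begins 100 bases before the start, TGACGTCA 57 before and TATAAA 25 before, and a TATAAA match on the other strand overlaps the last of these from 29 bases before. The window of Rian holds none of them and has 0 CpG dinucleotides, against 13 in that of Meg3 and a median of 7 over all promoter windows in the RefSeq table. Of 32851 such windows, 1.79% hold TGACGTCA, 13.6% hold TATAAA and 37.4% hold CCAAT. A second annotated start of Meg3 has 1 CpG. Among the other members, Mirg has 10 CpG and a CCAAT match, Dlk1 has 9 CpG and no match, and Dio3 has 25 CpG with TATAAA and CCAAT matches. These are matches of letters, not measured binding sites.

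P2ry1 itself was checked first. In CPM, which expresses the counts of a gene as a share of its library's counts after scaling by TMM factors, P2ry1 stood at 94.6 ± 8.57 (SD, n = 4) in wild-type DMSO libraries and 84.0 ± 8.98 (SD, n = 4) in knockout-labelled DMSO libraries. With ivermectin it stood at 93.1 ± 7.58 and 85.5 ± 4.95 (SD, n = 4 each). The levels of the lines overlapped in both treatments, and edgeR's quasi-likelihood test gave log2 differences of -0.17 (SE 0.101, adjusted p = 0.245) and -0.11 (SE 0.0927, adjusted p = 0.394). The RNA level therefore does not separate the lines, and the word knockout below refers to the label.

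The samples carried the markers of β-cells. All 20 genes of a β-cell list were present in every group, and their summed level was 39308 to 50745 CPM per library. By edgeR's test 3 of the 20 were higher and 5 lower in the knockout line in DMSO, where 9.86% of all 10820 genes tested were higher and 10.8% lower. With ivermectin 3 were higher and 7 lower (5 without wild-type ivermectin replicate 2, 4 by DESeq2), where 13.9% of all genes were higher and 13.9% lower. Without wild-type DMSO replicate 4 the DMSO counts were 2 and 3. The wild-type ivermectin replicate 4 stood apart from the other 3 libraries of its group, with chi-squared values per degree of freedom of 5.06 to 6.81 against 1.16 to 1.49 among those 3, and up to 2.18 within the other groups. Without it the knockout minus wild-type log2 differences with ivermectin were -3.14 for Meg3, -3.29 for Rian, -2.85 for Mirg and -0.45 for Dlk1, close to those given below with it. Library totals ran from 893088 to 2013242 counts, with the 4 lowest in the wild-type DMSO group, and 3 counts in a library, the limit that a count of 0 allows, correspond to 1.50 to 3.37 CPM. A hepatocyte list stood out in the wild-type DMSO libraries, at 1575 to 3401 CPM summed over 25 genes against 878 to 1346 in the other 3 groups. In those 3 groups most of the sum came from 1 gene, Ttr (transthyretin). Ttr stood at 600 ± 49.9 and 610 ± 48.0 CPM in wild-type DMSO and ivermectin libraries. In the knockout line it stood at 845 ± 85.5 and 877 ± 35.9 CPM (SD, n = 4 each). Of the 24 tested genes of this list, 23 were lower in the knockout line in DMSO. The 1 that was higher in DMSO was Ttr (log2 0.49, SE 0.0668, edgeR adjusted p = 6.73e-07). With ivermectin 1 of those 24 genes was higher, again Ttr (log2 0.53, SE 0.0647, edgeR adjusted p = 8.95e-08), and 1 was lower. The members differed between the lines by similar amounts in both treatments, as given below.

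Of the 6 members, 4 passed the filter on low counts: all 3 maternal genes and, of the paternal genes, Dlk1. The 3 maternal transcripts were 6.84- to 9.63-fold lower in the knockout line than in wild type, whereas Dlk1 was lower by 1.38- to 1.50-fold. For each of the 4, every knockout library lay below every wild-type library, both in DMSO and among the ivermectin libraries of the same lines. Among all 10820 genes tested, 11.4% had every knockout library below every wild-type one in DMSO and 12.7% did so with ivermectin. Since the members were listed with these differences known, nothing is read from the 4 against those shares.

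**Figure D1:**
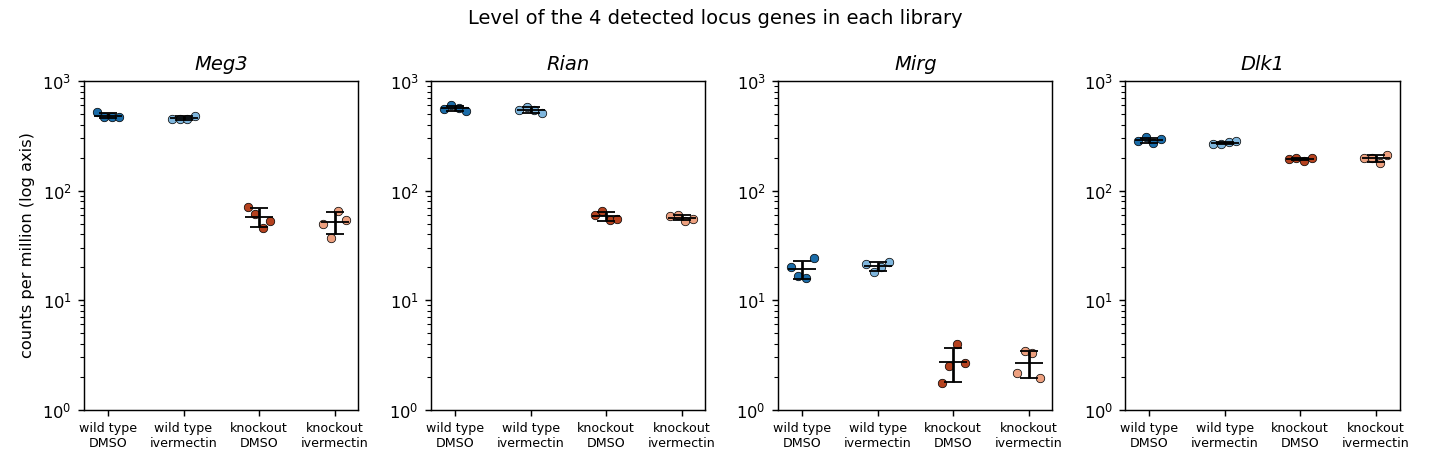
Level of Meg3, Rian, Mirg and Dlk1 in CPM on a log axis, 1 point per library, with the group mean and SD as bars. The maternal genes drop by close to an order of magnitude between the lines, the points of Dlk1 drop far less, and the DMSO and ivermectin points of each line overlap.

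Meg3 is the long non-coding RNA that gives the locus its name and lies next to the control region. Its counts in the wild-type DMSO libraries were 462, 485, 436 and 508, and in the knockout DMSO libraries 123, 122, 92 and 100. With ivermectin the wild-type libraries held 893, 830, 686 and 629 counts and the knockout libraries 92, 65, 100 and 84. The wild-type ivermectin libraries are about as much deeper as their counts are higher, which the scaled levels take out.

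Scaled to library totals, Meg3 stood at 483 ± 24.6 CPM in wild type with DMSO and 459 ± 15.3 CPM in wild type with ivermectin (SD, n = 4 each). In the knockout line it stood at 57.9 ± 11.0 CPM in DMSO and 51.5 ± 11.7 CPM with ivermectin (SD, n = 4 each). The lowest wild-type library, at 446 CPM, was far above the highest knockout library, at 71.4 CPM. The fitted log2 difference, knockout minus wild type, was -3.07 (SE 0.0975) in DMSO and -3.16 (SE 0.0988) with ivermectin, that is 8.37-fold and 8.97-fold lower. Meg3 was reduced but present in the knockout line: no library held fewer than 65 counts of it.

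Rian, the next gene downstream and the host of a cluster of C/D box small nucleolar RNAs, had counts of 492, 617, 527 and 572 in wild-type DMSO libraries. The knockout DMSO libraries held 104, 129, 108 and 103. Wild-type ivermectin libraries held 1079, 1065, 828 and 668 counts and knockout ivermectin libraries 110, 104, 81 and 85. As with Meg3, the lines were fully apart in each treatment, and the wild-type ivermectin libraries, which are deeper, held more raw counts than the wild-type DMSO ones.

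The levels of Rian were 563 ± 30.2 CPM and 546 ± 29.9 CPM in wild-type DMSO and ivermectin libraries, and 58.4 ± 5.13 CPM and 56.6 ± 3.14 CPM in the knockout line (SD, n = 4 each). Rian was thus 9.63-fold lower in DMSO (log2 -3.27, SE 0.0752) and 9.62-fold lower with ivermectin (log2 -3.27, SE 0.0752). It varied less among the knockout libraries than Meg3 did, from 52.9 to 64.7 CPM against 37.1 to 71.4 CPM for Meg3.

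Mirg, the most distant of the maternal transcripts and the host of a microRNA cluster, was measured with few counts. Wild-type DMSO libraries held 18, 17, 15 and 26 counts, and knockout DMSO libraries 3, 5, 8 and 5. The ivermectin libraries held 43, 33, 30 and 29 counts in wild type and 4, 6, 5 and 3 in the knockout line. Even at this depth no knockout library reached the CPM of a wild-type one: the highest was 3.99, and wild-type libraries began at 16.

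In means, Mirg stood at 19.3 ± 3.75 and 20.4 ± 1.83 CPM in the wild-type groups (DMSO, then ivermectin) and at 2.72 ± 0.935 and 2.69 ± 0.761 CPM in the knockout groups (SD, n = 4 each). The log2 differences were -2.77 (SE 0.293) in DMSO and -2.88 (SE 0.277) with ivermectin. Summed over the 4 libraries, 21 knockout counts against 76 wild-type counts gave a ratio 7.02-fold lower after scaling, with an exact 95% interval of 4.28 to 12.0. With ivermectin, 18 against 135 counts gave 7.56-fold (4.61 to 13.1). These intervals cover counting error only.

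Dlk1, the paternal gene upstream of Meg3, encodes a transmembrane protein with epidermal growth factor-like repeats that is known from preadipocytes, pituitary and islets. Its counts were 250, 315, 256 and 317 in wild-type DMSO libraries and 334, 392, 373 and 374 in knockout DMSO libraries. Wild-type ivermectin libraries held 536, 481, 416 and 368 counts and knockout ivermectin libraries 371, 346, 272 and 330. The raw knockout counts in DMSO exceed the wild-type ones because those libraries are deeper, and the order turns when counts are scaled.

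In CPM, Dlk1 stood at 289 ± 15.2 and 272 ± 8.07 in wild-type DMSO and ivermectin libraries and at 194 ± 5.35 and 197 ± 14.7 in the knockout line (SD, n = 4 each). The lowest wild-type library was at 264 CPM and the highest knockout library at 213. Dlk1 was 1.50-fold lower in DMSO (log2 -0.58, SE 0.0675) and 1.38-fold lower with ivermectin (log2 -0.46, SE 0.0648). This paternal gene was therefore lower in the same libraries as the maternal genes, not higher.

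Rtl1 and Dio3, the other paternal genes, were at or near 0. Rtl1, a gene derived from a retrotransposon, had at most 4 counts in any library and 19 in all, of which 14 were in wild-type and 5 in knockout libraries, and 6 libraries had 0. Dio3, an enzyme that inactivates thyroid hormone, had 1 count in each of 2 libraries, one per line, and 0 in the other 14. Both failed the filter, neither rose clearly above the limit of 3 counts, and no fold is given.

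Compared per length, in deposited TPM, which divides by transcript length and sums to the same total in each library, the order of the levels changed between the lines. In wild-type DMSO libraries Rian led at 248 ± 16.7 TPM, followed by Meg3 at 204 ± 9.67, Dlk1 at 105 ± 8.50 and Mirg at 26.3 ± 5.41 (SD, n = 4 each). No neighbours in that order overlapped between libraries. In knockout DMSO libraries Dlk1 led at 66.6 ± 4.05 TPM, Rian and Meg3 followed at 24.5 ± 3.26 and 24.3 ± 2.97, with overlapping libraries, and Mirg stood at 3.53 ± 1.22 (SD, n = 4 each). The ivermectin libraries had the same orders, with 237 ± 18.5, 174 ± 10.3, 96.6 ± 2.93 and 27.3 ± 2.64 TPM for Rian, Meg3, Dlk1 and Mirg in wild type. In the knockout line with ivermectin those 4 genes stood at 22.5 ± 2.29, 20.3 ± 3.07, 63.9 ± 5.68 and 3.32 ± 0.985 TPM (SD, n = 4 each).

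The sum of the 3 maternal genes over the sum of the 3 paternal genes puts both classes on 1 scale. In TPM this ratio was 4.57 ± 0.174 for wild type with DMSO and 4.51 ± 0.333 for wild type with ivermectin (SD, n = 4 each). It was 0.783 ± 0.0495 and 0.725 ± 0.0868 in the knockout line (SD, n = 4 each). So the maternal transcripts outweighed the paternal ones in each wild-type library, where the lowest ratio was 4.14, and were outweighed in each knockout library, where the highest was 0.853.

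The ratio was 5.84-fold lower in the knockout line in DMSO (log2 -2.55, SE 0.0537) and 6.24-fold lower with ivermectin (log2 -2.64, SE 0.0978). On raw counts in place of TPM the log2 differences were -2.59 and -2.74. Dlk1 made up 98.5% to 100% of the paternal sum in every library, so the ratio is in practice that of the non-coding genes to Dlk1.

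**Figure D2:**
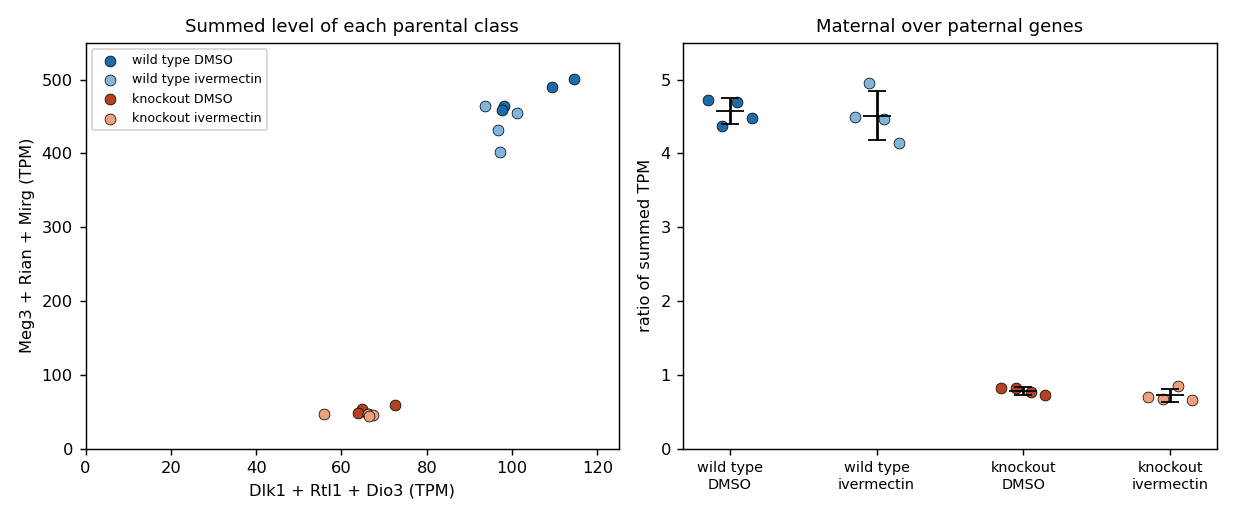
Left, summed TPM of Meg3, Rian and Mirg against that of Dlk1, Rtl1 and Dio3, 1 point per library; right, the ratio of these sums by group with mean and SD. Wild-type libraries lie at ratios of 4.14 to 4.95 and knockout libraries at 0.667 to 0.853.

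Within the maternal class the proportions moved little compared with the change in level. Rian over Meg3 in TPM was 1.22 ± 0.0992 and 1.36 ± 0.0493 in wild-type DMSO and ivermectin libraries, and 1.01 ± 0.0813 and 1.14 ± 0.291 in the knockout line (SD, n = 4 each). The DMSO libraries of the lines did not overlap in this ratio, at 1.11 to 1.33 against 0.906 to 1.09, while the ivermectin libraries did. In raw counts the DMSO libraries overlapped as well, at 1.17 ± 0.0911 in wild type and 1.03 ± 0.136 in the knockout line (SD, n = 4 each). Mirg over Rian in TPM was 0.107 ± 0.0258 and 0.116 ± 0.0158 in wild type and 0.147 ± 0.0601 and 0.148 ± 0.0423 in the knockout line, with overlap in both treatments (SD, n = 4 each).

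Among all genes tested, the maternal members stood near the bottom of the knockout minus wild-type differences. Counted from the most negative in DMSO, Rian was number 53, Meg3 58 and Mirg 69 of 10820, and Dlk1 was number 700. With ivermectin, Rian was number 11, Meg3 12, Mirg 14 and Dlk1 1044. The listed hepatocyte genes had a median log2 difference of -3.61 between the lines in DMSO and of -0.19 with ivermectin, and their part in these places was not tested. The median over all genes was within 0.01 of 0 in both.

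**Figure D3:**
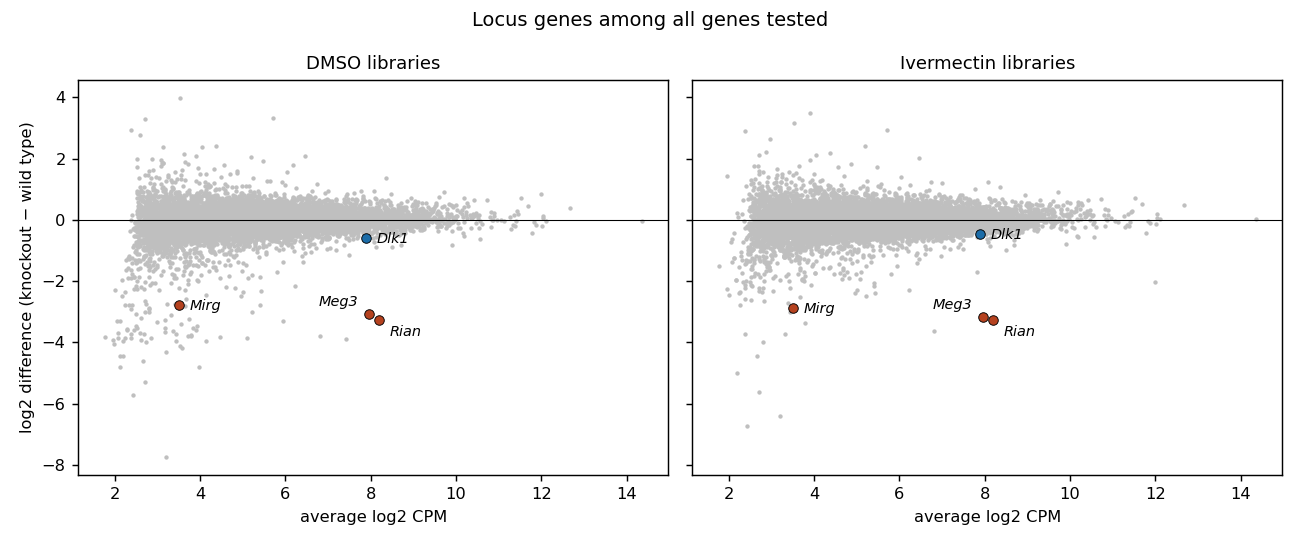
Log2 difference between the lines (knockout minus wild type) against average log2 CPM for the 10820 genes tested, in DMSO (left) and ivermectin libraries (right), with the 4 tested members marked. Meg3 and Rian combine a high average level with a log2 difference below -3, and Dlk1, at a like level, lies at -0.58 and -0.46 near the main body of genes.

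The genes around the locus lay much closer to 0 than the maternal members. Of 148 other annotated genes in the span or within 1 Mb of it, 92 have a row in the count table and 17 passed the filter, all 17 outside the span. In DMSO the median log2 difference of these 17 flanking genes was -0.02, with a range of -0.79 to 0.49. With ivermectin the median was -0.13 and the range -0.39 to 0.21. The lowest, Slc25a47 (a mitochondrial carrier) in DMSO, had an SE of 0.377 and an adjusted p of 0.134 in edgeR's quasi-likelihood test. Its mean was 9.43 CPM in wild-type DMSO and 4.95 CPM in wild-type ivermectin libraries, and 5.48 and 5.14 CPM in knockout DMSO and ivermectin libraries. The hepatocyte list was also highest in wild-type DMSO libraries, and a link was not tested.

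By the same test 1 of the 17 flanking genes was higher in DMSO and 0 lower, and 0 were higher and 2 lower with ivermectin. The 0 lower in DMSO became 1 with the replicate block or without 1 of 3 DMSO libraries (wild-type replicate 1 or 3, knockout replicate 2) and 2 with thinned libraries (Dync1h1, then also Eml1). The shares over all genes are those given for the β-cell list. Cinp, whose product binds a cell cycle kinase, rose by 0.49 (SE 0.141, adjusted p = 0.0103) in DMSO, and its call was lost without wild-type DMSO replicate 2 (adjusted p = 0.0584) or knockout DMSO replicate 4 (adjusted p = 0.0733). Eml1, a microtubule-associated gene, fell by 0.39 with ivermectin (SE 0.113, adjusted p = 0.00909), a call lost without knockout ivermectin replicate 4 (adjusted p = 0.0518) or with libraries thinned to the smallest total (adjusted p = 0.0545). Dync1h1, the heavy chain of cytoplasmic dynein, fell by 0.22 with ivermectin (SE 0.0758, adjusted p = 0.0272), and lost its call without wild-type ivermectin replicate 1 (0.199) or 3 (0.0520) or knockout ivermectin replicate 3 (0.112) or 4 (0.0811), by DESeq2 (0.0598) and with thinned libraries (0.0698), all adjusted p-values.

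The other flanking genes, Evl, Degs2, Yy1, Slc25a29, Wars, Wdr25, Ppp2r5c, Hsp90aa1, Wdr20, Zfp839, Tecpr2, Rcor1 and Traf3, did not pass the test in either treatment. Begain, the nearest annotated coding gene beyond Dlk1, had 39 counts in all and was not tested. Inside the span, the 59 microRNA genes in the table and the 4 small nucleolar RNA genes in it were at 0 in all 16 libraries. These RNAs lack a poly(A) tail or are shorter than the fragments such a library keeps, so the zeros say nothing of their levels. The remaining 3 genes inside the span had at most 7 counts in all.

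**Figure D4:**
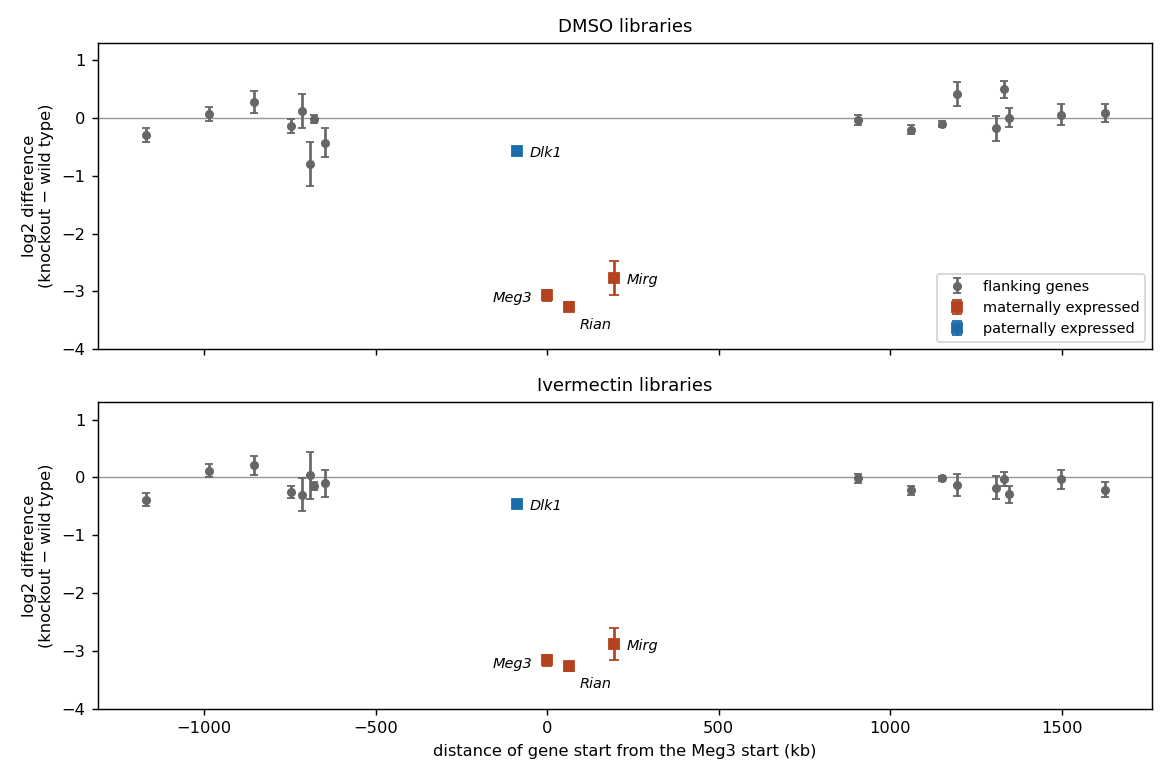
Log2 difference between the lines (knockout minus wild type, bars are SE) against the distance of each gene's start from that of Meg3 in kb, for the 4 tested members (squares) and 17 flanking genes (circles), in DMSO (top) and ivermectin libraries (bottom). The maternal members lie between -2.77 and -3.27, Dlk1 at -0.58 and -0.46, and the flanking genes within -0.79 to 0.49.

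In CPM, the ivermectin and DMSO libraries of each line overlapped for all 4 tested members. In wild type the log2 differences, ivermectin minus DMSO, were -0.07 (SE 0.0779) for Meg3, -0.04 (SE 0.0595) for Rian, 0.07 (SE 0.208) for Mirg and -0.09 (SE 0.0662) for Dlk1. In the knockout line they were -0.17 (SE 0.127), -0.04 (SE 0.0970), -0.03 (SE 0.409) and 0.02 (SE 0.0661) in the same order. Among all genes, 3.35% in wild type and 3.69% in the knockout line had CPM groups that did not overlap. In TPM, which also divides by the estimated transcript length, wild-type Meg3 did not overlap between treatments, at 193 to 217 with DMSO and 163 to 187 with ivermectin.

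The mix of annotated transcripts is a measure that the choice of members did not use. RSEM reports for each gene a transcript length weighted by the estimated abundance of its isoforms, and Meg3 has 4 and Dlk1 5 annotated transcripts in the files, whereas each of the other 4 members has 1. For Meg3 this length was 3916, 3739, 3739 and 3528 bases in wild-type DMSO libraries and 3823, 3670, 3251 and 3415 in knockout DMSO libraries. The groups overlapped, and the mean difference of -191 bases had p = 0.257 in an exact two-sided permutation test (adjusted over 4 tests, p = 0.343).

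With ivermectin the weighted length of Meg3 was 4121, 3750, 4094 and 4319 bases in wild type and 3603, 3408, 3737 and 3513 in the knockout line. Here every knockout library was shorter, with a mean difference of -506 bases. The exact two-sided permutation test gave p = 0.0286, the smallest that 4 against 4 libraries can give, and p = 0.114 after adjustment over the 4 tests, so no outcome of this comparison by itself could have passed the threshold of 0.05 after adjustment. Isoform estimates of Meg3 in the knockout line rest on 65 to 123 counts per library.

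Dlk1 was uniform in length. The means were 4324 ± 16.3 bases in wild-type DMSO and 4310 ± 7.11 in knockout DMSO libraries (SD, n = 4 each), a difference of -13.7 (exact two-sided permutation test, p = 0.171, adjusted p = 0.343). With ivermectin the difference was 2.72 bases (exact two-sided permutation test, p = 0.8, adjusted p = 0.8), and its sign turned under other settings. A shift between transcripts of like length would not be seen this way.

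**Figure D5:**
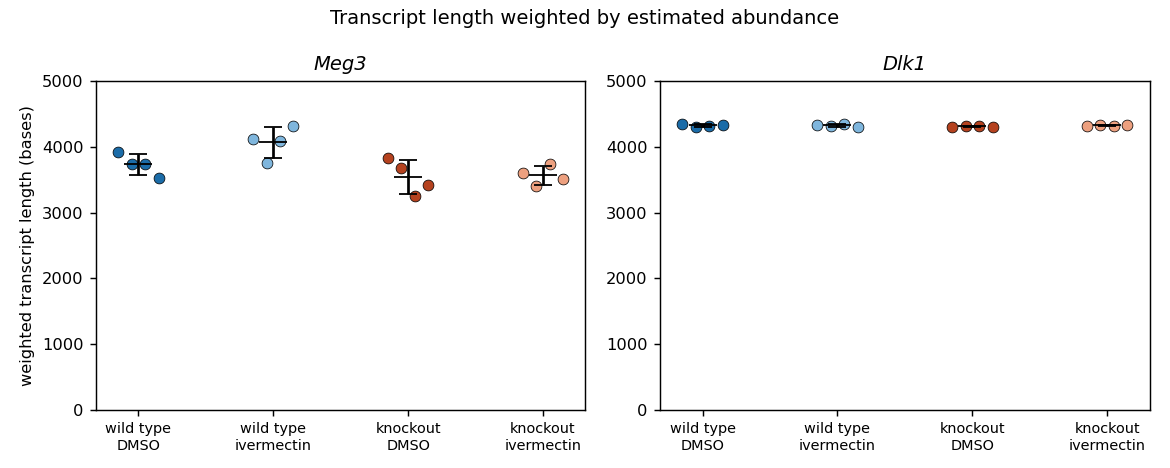
Transcript length weighted by estimated isoform abundance, in bases, for Meg3 and Dlk1 in each library, with group mean and SD. Meg3 ranges from 3251 to 4319 bases and Dlk1 stays between 4303 and 4345 in all 16 libraries.

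Genes known to maintain imprints were examined because they act on the control region of such loci. The list also holds the Tet genes and Tdg, which act in the removal of methylation. Of 26 listed, 18 were tested: 1 was higher and 2 were lower in the knockout line in DMSO, and 4 were higher and 2 lower with ivermectin, with list medians of -0.00045 and -0.03. Over all genes 9.86% were higher and 10.8% lower in DMSO, and 13.9% and 13.9% with ivermectin. The 4 higher with ivermectin were Uhrf1, a partner of Dnmt1 (log2 0.25), Setdb1, a histone methyltransferase (0.34), Tet2, which oxidises methylated cytosine (0.37), and Daxx, a histone chaperone (0.43). None of the 4 calls held by DESeq2 (adjusted p of 0.0538, 0.144, 0.134 and 0.104), without knockout ivermectin replicate 3 or without wild-type ivermectin replicate 4. Each single-library omission left at most 3 of them. In DMSO the higher gene was Tdg, a DNA glycosylase (log2 0.58, SE 0.185, edgeR adjusted p = 0.0211), whose call was lost without wild-type DMSO replicate 1 (0.0829), 2 (0.0965) or 4 (0.0802) or knockout DMSO replicate 3 (0.0853). The main maintenance methyltransferase gene Dnmt1 stood at 267 ± 8.83 CPM in wild-type DMSO and 267 ± 20.5 in knockout DMSO libraries (SD, n = 4 each; log2 0.00, SE 0.0717, edgeR adjusted p = 0.986). With ivermectin its log2 difference was -0.17 (SE 0.0690, edgeR adjusted p = 0.0583), and it passed the threshold without wild-type ivermectin replicate 2 (0.0346) or 4 (0.0460) or knockout ivermectin replicate 2 (0.0244), and at a mean of at least 50 counts (0.0379). Dnmt3a, a de novo methyltransferase, had log2 differences of -0.06 (SE 0.0803) and -0.14 (SE 0.0775), and Trim28, a corepressor recruited to imprints by zinc finger proteins, of 0.09 (SE 0.0570) and 0.03 (SE 0.0549), none past the test.

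Zfp445, a zinc finger protein of imprinted control regions, fell by 0.39 with ivermectin (SE 0.108, edgeR adjusted p = 0.00599), and its difference in DMSO was -0.21 (SE 0.114, adjusted p = 0.203). The insulator protein gene Ctcf fell by 0.23 in DMSO (SE 0.0800, edgeR adjusted p = 0.0405), a call lost when any 1 of the 8 DMSO libraries was left out (adjusted p of 0.0555 to 0.108), by DESeq2 (0.138), without the low-count filter (0.149) and with thinned libraries (0.363). With ivermectin the Ctcf difference was -0.20 (SE 0.0761, edgeR adjusted p = 0.0509), which passed the threshold with RLE factors (0.0487), at a mean of at least 50 counts (0.0272) and without knockout ivermectin replicate 2 (0.0101). Atrx, a chromatin remodeller, fell by 0.29 in DMSO (SE 0.0854, edgeR adjusted p = 0.0136), and lost its call without wild-type DMSO replicate 2 (0.110) or knockout DMSO replicate 1 (0.0568) or 4 (0.0775). With ivermectin Atrx fell by 0.23 (SE 0.0819, edgeR adjusted p = 0.0328), a call lost in 8 of 16 alternatives, 6 of them single libraries left out (adjusted p up to 0.117) and the others DESeq2 (0.0730) and thinning (0.0513). Zfp57, the best known protector of imprints, had 1 count in all 16 libraries and could not be compared.

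Genes of Polycomb repressive complex 2 and cohesin, which are known to act with Meg3 or Ctcf, were listed as well. The list also holds the corepressor genes Sin3a and Hdac3, which belong to neither complex. They are among the genes counted below, and neither passed the test in either treatment. Of 18 tested genes, 2 were lower in DMSO, against 10.8% of all genes, and 1 with ivermectin, against 13.9%. By edgeR 0 were higher in either treatment (also 0 by DESeq2), but 1 became higher in DMSO without the low-count filter, wild-type replicate 2 or knockout replicate 2 (Phf19) and 1 with ivermectin without knockout replicate 3 (Suz12), both subunits of the complex. The list medians were -0.06 and -0.07. Jarid2, an accessory subunit of the complex, fell by 0.66 in DMSO (SE 0.141, edgeR adjusted p = 0.000608) and by 0.53 with ivermectin (SE 0.141, adjusted p = 0.00408), from 50.9 ± 8.44 to 32.3 ± 1.71 CPM in DMSO (SD, n = 4 each). Smc3, a cohesin subunit, fell by 0.26 in DMSO (SE 0.0642, edgeR adjusted p = 0.00284), and its difference with ivermectin was -0.15 (SE 0.0615, adjusted p = 0.0696). The catalytic subunit gene Ezh2 had log2 differences of 0.23 (SE 0.104, edgeR adjusted p = 0.117) and 0.00 (SE 0.0951, adjusted p = 0.993).

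The Notch pathway was listed because Dlk1 belongs to the family of its ligands. Of 43 genes 24 were tested, 4 higher and 2 lower in DMSO and 5 higher and 3 lower with ivermectin, with medians of -0.01 and 0.06. Over all genes 9.86% were higher and 10.8% lower in DMSO, and 13.9% and 13.9% with ivermectin. Of the 5 higher with ivermectin, 3 remained by DESeq2 and without knockout ivermectin replicate 1, where Dll1, a ligand, and Numbl lost their calls. The Dll1 call was lost in 10 of 15 alternatives, among them leaving out any 1 of the 8 ivermectin libraries except wild-type replicate 2 (adjusted p up to 0.136). The ligand gene Jag2 fell from 64.6 ± 6.70 to 39.7 ± 5.67 CPM in DMSO (SD, n = 4 each; log2 -0.70, SE 0.128, edgeR adjusted p = 9.63e-05) and by 0.64 with ivermectin (SE 0.119, adjusted p = 8.42e-05). Mib1, a ubiquitin ligase that activates ligands, fell by 0.63 in DMSO (SE 0.163, edgeR adjusted p = 0.00428) and by 0.85 with ivermectin (SE 0.149, adjusted p = 3.86e-05). Higher in the knockout line in both treatments were Rfng, a glycosyltransferase that modifies receptors (log2 0.79 and 1.09, edgeR adjusted p = 5.44e-05 and 1.77e-08), Hes6, a transcription factor (0.62 and 0.54, adjusted p = 0.00152 and 0.00130) and Neurl1a, another ubiquitin ligase (0.65 and 0.59, adjusted p = 0.000768 and 0.000477).

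Numbl, an adaptor of the Numb family, rose by 0.64 in DMSO (SE 0.132, edgeR adjusted p = 0.000410) and by 0.40 with ivermectin (SE 0.119, adjusted p = 0.0116). Notch1 was low, at 12.8 ± 3.40 CPM in wild-type DMSO libraries (SD, n = 4). Its log2 difference was -0.04 (SE 0.263) in DMSO and -0.34 (SE 0.240) with ivermectin, neither past the test. Adam17, a protease that sheds Dlk1 from the membrane, had log2 differences of 0.11 (SE 0.163) and 0.15 (SE 0.143), neither past the test. Notch2 and Hes1 had too few counts to be tested.

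Genes of thyroid hormone handling were listed because of Dio3. Of 18 genes 11 were tested, 2 higher and 3 lower in DMSO and 1 higher and 5 lower with ivermectin, with medians of -0.18 and -0.16, against the same shares of all genes as above. Of the 2 higher in DMSO, Klf9, a hormone-induced transcription factor (log2 0.46, edgeR adjusted p = 0.0182), lost its call by DESeq2 (0.0525) and without wild-type DMSO replicate 2 (0.0710) or 3 (0.0683) or knockout DMSO replicate 2 (0.0725) or 3 (0.0508). Of the 3 lower in DMSO, 2 were called by DESeq2 and 1 without wild-type DMSO replicate 4. Of the 5 lower with ivermectin, 2 were called by DESeq2 and 2 without wild-type ivermectin replicate 3. The hormone transporter gene Slc16a10 rose from 114 ± 5.35 to 165 ± 8.69 CPM in DMSO (SD, n = 4 each; log2 0.53, SE 0.0844, edgeR adjusted p = 1.03e-05) and by 0.50 with ivermectin (SE 0.0802, adjusted p = 1.25e-05). Slc7a5, an amino acid transporter that also carries thyroid hormone, fell by 0.44 in DMSO (SE 0.0699, edgeR adjusted p = 9.50e-06) and by 0.47 with ivermectin (SE 0.0683, adjusted p = 2.11e-06). The receptor gene Thra had log2 differences of -0.32 (SE 0.224) and 0.04 (SE 0.208), neither past the test. The deiodinase genes Dio1 and Dio2 had too few counts to be tested.

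Comparing ivermectin with DMSO within a line, 0 of 88 genes, the flanking genes and those of the Notch, imprint-maintenance, Polycomb and cohesin, and thyroid hormone lists, passed edgeR's test in either line, where 0.601% of all genes did in wild type and 0% in the knockout line. At an unadjusted p under 0.05 there were 3 in wild type and 7 in the knockout line, against 5.2% and 7.58% of all genes, and DESeq2 called 0 in both. Of the hepatocyte list, which is not among the 88, 22 of 24 tested genes were lower with ivermectin in wild type (list median log2 -2.48) and 0 in the knockout line.

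Other islet cell types differ in how much of the locus they express, so the markers of such cells are given beside the members. A list of 7 α-, δ- and PP-cell genes summed to 483 to 568 CPM in wild-type libraries and 235 to 286 in knockout libraries. Of 3 tested, Gcg and Sst were lower in the knockout line in both treatments, and Sst, the somatostatin gene of δ-cells, stood at 218 ± 15.4 CPM in wild-type DMSO and 15.4 ± 2.60 in knockout DMSO libraries (SD, n = 4 each). The 6 endothelial markers summed to at most 10.2 CPM, with 4.28 to 10.2 in wild-type DMSO and 0.499 to 1.16 in knockout DMSO libraries, and Cdh5 and Vwf were at 0 in the latter. With ivermectin the lines overlapped in this sum, at 2.74 to 6.12 CPM in wild type and 0.571 to 3.23 in the knockout line. Fabp4, a fatty acid-binding protein of fat cells and capillary endothelium, fell in both treatments, from 9.15 ± 3.42 to 0.515 ± 0.433 CPM in DMSO (SD, n = 4 each; log2 -3.93, SE 0.622, edgeR adjusted p = 1.01e-05) and from 2.87 ± 2.75 to 0.621 ± 0.531 CPM with ivermectin (SD, n = 4 each; log2 -2.24, SE 0.729, adjusted p = 0.0194). The ivermectin call was lost by DESeq2 and without wild-type ivermectin replicate 1 or knockout ivermectin replicate 2. It is 1 of 8 genes listed for preadipocytes and pituitary, of which 3 were tested, and Gh, Prl and Pou1f1 were at 0 in every library. Fibroblast, immune and exocrine lists summed to at most 12.4 CPM in any library. The fibroblast list summed to 9.78 to 12.4 CPM in wild-type DMSO and 2.01 to 5.99 in knockout DMSO libraries. With ivermectin the lines overlapped in this sum, at 2.19 to 6.00 CPM in wild type and 2.61 to 6.28 in the knockout line. The part of these cell types in the differences of the members was not tested, and in bulk RNA fewer cells that express a gene and less RNA per cell cannot be told apart.

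The members were also placed by likeness of pattern, using Pearson correlation of log2 CPM over the 16 libraries with each of 10819 other genes. The genes most like Rian were Atp1b1 (r = 0.997), Nptx2 (0.992), Meg3 (0.991), Sorbs2 (0.990) and Sst (0.989), with Mirg at 0.977 and Dlk1 at 0.968. Those most like Dlk1 were Igsf1 (0.983), Hepacam2 (0.970), Rian (0.968), Gnb1 (0.966) and Sst (0.965). Such values mostly reflect the gap between the lines, which all these genes share across the same 16 libraries.

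After the group means were taken out, the likeness among the members was low or negative. The correlation of deviations with Rian was -0.02 for Meg3, -0.53 for Mirg and 0.21 for Dlk1, and the highest values belonged to Cacng7 (0.908), Slc4a7 (0.850), Atp1b1 (0.841), Hipk3 (0.829) and Slc25a30 (0.824). For Dlk1 they belonged to Cdh2 (0.891), Rc3h1 (0.874), Ncor1 (0.828), Prkaca (0.828) and Adam9 (0.827). These are descriptions over 16 libraries with counting noise included, and no p is given.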

How the data were processed

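Total RNA of each library was made into a poly(A)-selected, strand-keeping library, per the labels' protocols. The submitters' processing notes name bcl2fastq, STAR 2.7.2b, RSEM 1.3.3, DESeq2 1.32.0 and mm10, with no role or order. The main table is the raw count table the authors deposited, and each of its 373264 values equals the expected count of the authors' RSEM files rounded down. TPM, expected counts and weighted transcript lengths were used as the authors deposited them, per the file headers. Deposited single-cell files of human islets were not used.

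The counts went into edgeR 4.0.16 (R 4.3.3), with filterByExpr at its defaults (minimum count 10, minimum total 15; 10820 of 23329 genes kept), TMM factors, 1 mean per group over all 16 libraries, quasi-likelihood F tests, and Benjamini-Hochberg adjustment over all genes with a threshold of 0.05. CPM values divide by the total of the tested genes times the TMM factor. SEs come from the log2 difference and its F statistic. Likeness used log2 CPM with a prior count of 2. Replicates of a group all differed by more than counting noise (chi-squared per degree of freedom 1.16 to 6.81, the 3 highest values all from wild-type ivermectin replicate 4). Positions, promoters and neighbours come from RefSeq for GRCm38.p6; 5 members have a promoter entry.

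The members and gene lists were chosen with earlier results of these data known. The lists hold Notch, imprint-maintenance (with the Tet genes and Tdg), Polycomb and cohesin (with Sin3a and Hdac3), and thyroid hormone genes. Further lists hold markers of β-cells, hepatocytes, fibroblasts, immune, endothelial, other islet, exocrine, and preadipocyte and pituitary cells. The last of these summed to 25.1 to 49.5 CPM per library. Genes named are the members, P2ry1, tested flanking genes, up to 4 list members past the threshold per direction, fixed genes of each list, and the 5 most like Rian and Dlk1. Some listed genes that lost their call under an alternative are not named. Phf19, Suz12, Sin3a, Hdac3, and Numbl with ivermectin, were named after their values were seen. Alternatives were DESeq2 1.42.0, RLE factors, expected counts, no filter, a filter at a mean of 50 counts, a fit of the compared 8 libraries alone, the replicate number as a block, thinning to 893088 counts, effective lengths, counts in place of TPM, and leaving out each library.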

Additional observations from a re-analysis of the deposited data

Results flagged for a closer look

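The level of Meg3 in 1 wild-type DMSO library was set apart from the other 3 of its group: replicate 1 stood at 519 CPM and the others between 466 and 474 CPM. Of 28 groups of 4 libraries examined in this way, chance alone would set apart about 1.4, and 1 was found. That library is also the shallowest of the 16, at 893088 counts.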

How the results depend on the processing

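All 126 alternative values of the knockout minus wild-type difference of the 4 tested members were below 0, and 247 of 251 alternative values of member differences moved by less than the spread. The exceptions came from thinning every library to the smallest total: with ivermectin the knockout minus wild-type difference became -2.29 for Mirg and -0.31 for Dlk1, and in the knockout line the ivermectin difference became 0.38 for Mirg and 0.17 for Dlk1. Mirg could not be fitted at a mean of at least 50 counts.

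Genes called between the lines numbered 2240 in DMSO (1693 to 2664 over the alternatives; 1837 to 2343 without 1 library) and 3008 with ivermectin (2432 to 2926 without 1 library), where thinning left 1863. Genes called for ivermectin in wild type numbered 65, but 140 with no filter, 7 at a mean of at least 50 counts, and 55 to 100 without 1 library (100 without ivermectin replicate 1). In the knockout line 0 became 23 with no filter. DESeq2 called 1724 and 2016 between the lines and 63 and 0 for ivermectin.

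Labels give the groups the same replicate numbers. Same-numbered libraries had correlated deviations of -0.05 to 0.14, which is not over 0.1 for every pair, and the labels name no shared origin, so the samples are treated as sharing only a number. That 9 of 16 libraries correlated best with their own number is a hint from the data of some shared source. With the replicate block 2275, 3041, 71 and 0 genes were called (between the lines in DMSO and ivermectin, then for ivermectin in wild type and knockout), and the members' differences in DMSO were -3.07, -3.27, -2.77 and -0.58 for Meg3, Rian, Mirg and Dlk1.

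Some differences, most of them near 0, changed sign in some settings, and the cause was not tested. For the Dlk1 length with ivermectin they were -4.10 with effective lengths and -3.96 to 9.75 without 1 library. Dnmt1 in DMSO was -0.010 at a mean of at least 50 counts, -0.0026 in the 8 libraries alone and -0.051 to 0.034 without 1 library. Ezh2 with ivermectin was -0.00017 with RLE factors, -0.0088 at that mean, -0.091 when thinned and -0.053 to 0.071 without 1 library. Notch1 was -0.18 to 0.11 in DMSO without 1 library. With ivermectin it was -0.34 in the main fit and 0.15 when thinned. Thra with ivermectin was -0.077 when thinned and -0.14 to 0.27 without 1 library. Of 38 calls of named genes, 20 held under every alternative run. Of the tested members Mirg had the fewest counts, with 3 to 8 per knockout library. Rtl1 and Dio3 had too few counts to be compared, and whether depth or absent expression is the reason was not tested.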
